A study of Ovis aries with 16 samples.

Results

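The 3 cytochrome c oxidase subunit genes of the mitochondrial genome, COX1, COX2 and COX3, were described in heart muscle of adult female sheep. They were 3 of the 27054 features of the expression table, taken by their Ensembl IDs: ENSOARG00000000016 for COX1, ENSOARG00000000019 for COX2 and ENSOARG00000000023 for COX3. The table held IDs without gene names. The names rest on the order of the mitochondrial genes in the Oar_v3.1 gene set, whose first 37 IDs run along the mitochondrial genome. The RefSeq gene table of assembly ARS-UI_Ramb_v3.0 listed 37 mitochondrial genes, and all 37 positions matched this order in kind of gene and, for the 13 mRNAs, in symbol. This match concerns the order of genes only and does not tie any ID to a gene. The tRNA names used here follow the order common to vertebrates.

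Cytochrome c oxidase, complex IV of the respiratory chain, passes electrons from cytochrome c to oxygen and pumps protons across the inner mitochondrial membrane. COX1 and COX2 hold the redox centres, with the site of oxygen reduction in COX1 and the entry site for electrons in COX2, while COX3 completes the catalytic core. The other subunits are encoded in the nucleus. The genes of the core subunits lie on the same strand of the mitochondrial genome and are transcribed as part of one long precursor, which is cut mostly at the tRNAs that lie between genes, and the mRNAs are then polyadenylated. ATP6 and COX3 are joined without a tRNA between them. Heart muscle is dense in mitochondria, and mitochondrial mRNAs are known to be abundant in it.

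The series examined how exposure to the plasticiser bisphenol A (BPA) before birth and overfeeding after weaning, alone or together, bear on the heart transcriptome. Ewes were injected daily with 0.5 mg/kg BPA in corn oil from day 30 to day 90 of pregnancy, or with corn oil alone. Their daughters ate a control diet (1.4 lbs corn and 1.4 lbs hay a day at first) or were overfed (1.7 lbs corn and 1.6 lbs hay, later without limit) from 14 weeks of age. The control group had oil and the control diet, the BPA group had BPA and the control diet, the obese group had oil and overfeeding, and the ObBPA group had both exposures. All animals received prostaglandin F2α to synchronise the cycle before the hearts were taken at 21 months. Each group held 4 animals, picked at random, with 1 library each, numbered 0 to 3. The labels do not say which part of the heart the muscle came from. Since the IDs could not be paired with nuclear gene symbols, markers of heart muscle cells and of other cell types were not examined.

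Levels were given as FPKM, by its general definition a count of sequenced fragments divided by transcript length and by the library's total of mapped fragments. Whether the libraries were scaled further is not stated. The measure is meant to make genes of unlike length comparable, which was not tested here for features as short as tRNAs. The summed FPKM ranged from 2611772 to 5455705 between libraries. The feature of tRNA-Pro alone took 20.0% to 48.5% of that sum, and all 37 mitochondrial features together took 62.6% to 77.0%. The 4 libraries numbered 0 stood apart from the other 12, with 1 of them in each group.

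COX1 was the most abundant mitochondrial mRNA by FPKM, with a lowest value of 73524, a median of 88060 and a highest value of 112516 over the 16 libraries. It ranked between 4th and 6th of all features in every library. COX3 followed with a lowest value of 45096, a median of 62048 and a highest value of 74709, and ranked between 6th and 9th. COX2 was listed at only 12.9 to 36.2, with a median of 20.7, and ranked between 2321st and 5194th. The FPKM of COX1 was 2370 to 7937 times that of COX2 in the same library, and the FPKM of COX3 was 1532 to 4814 times that of COX2. COX1 exceeded COX3 in all 16 libraries, by 1.25 to 1.77 times.

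**Figure D1:**
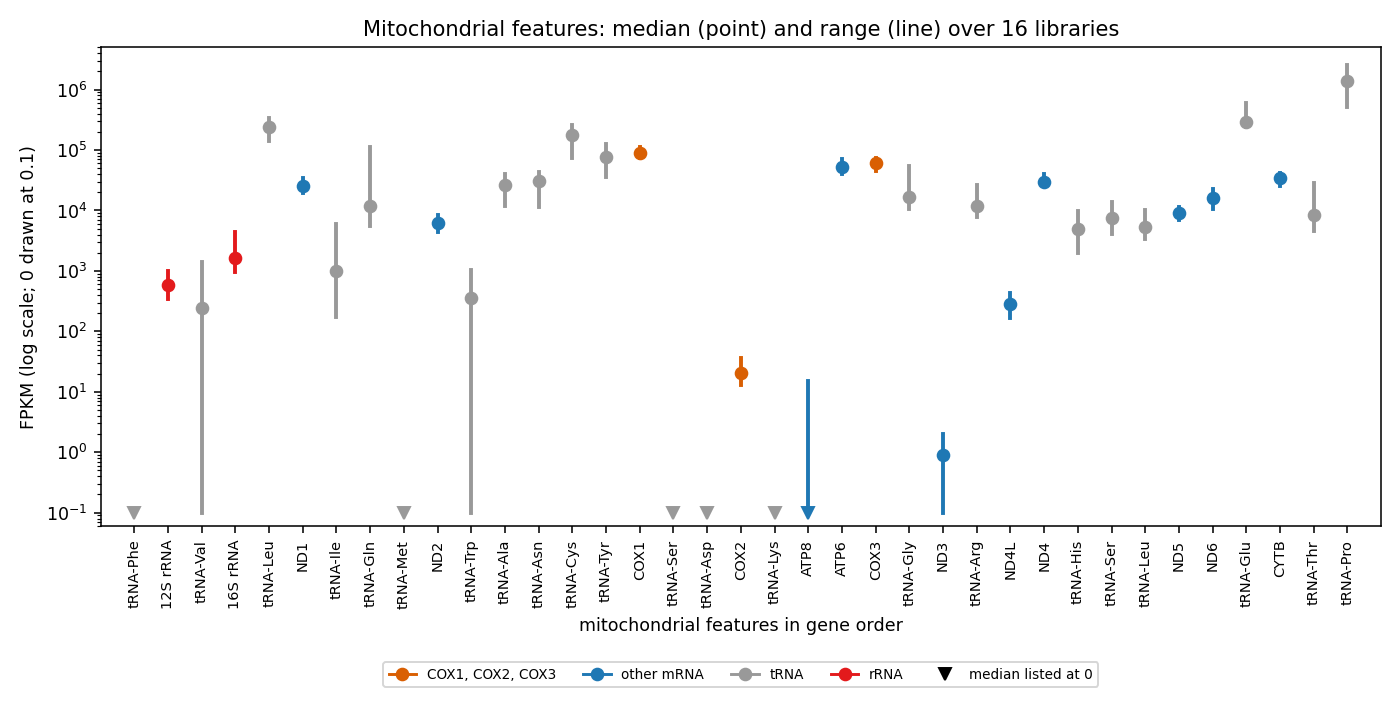
FPKM of the 37 mitochondrial features (x axis, in gene order) on a log scale (y axis), with the median as a point and the range over 16 libraries as a line; values of 0 are drawn at 0.1. COX1 lies at 73524 or higher and COX3 at 45096 or higher, whereas COX2 lies between 12.9 and 36.2, beside tRNAs listed at 0.

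Some features next to COX2 were at or near 0 as well, while others close by were among the most abundant. In gene order, COX2 lies between tRNA-Asp and tRNA-Lys. Both of these tRNAs and the tRNA-Ser that follows COX1 were listed at 0 in all 16 libraries. This was not particular to the surroundings of COX2, since tRNA-Phe and tRNA-Met, which lie elsewhere, were also at 0 throughout, 5 tRNAs in all. ATP8, a small subunit of ATP synthase that follows tRNA-Lys, was listed at 0 in 11 libraries and reached 15.2 at most. The next genes, ATP6, another ATP synthase subunit, and COX3 itself, were back at 39625 to 71281 and at 45096 to 74709. Of the 13 mitochondrial mRNAs, 3 stayed under 100 FPKM in every library. These were COX2, ATP8 and ND3, a complex I subunit with a highest value of 2.04. ND4L, whose gene overlaps that of ND4, had 165 to 430. The other 9, including COX1 and COX3, had 4349 to 112516. Whether the low value of COX2 reflects its transcript or its quantification was not tested. An FPKM table does not show how fragments of neighbouring or near-identical sequences were divided, and values of the COX2 feature are therefore uncertain as levels of the mRNA.

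COX1, the subunit that holds the site of oxygen reduction, had group means between 85611 and 95706 FPKM. Its FPKM values in libraries 0 to 3 were 104443, 93577, 89517 and 95289 in control hearts. They were 111173, 85828, 73524 and 86603 in BPA hearts. In obese hearts they were 97093, 75966, 83291 and 86094, and in ObBPA hearts 112516, 84847, 104313 and 75529. Library 0 was the highest of its group in all 4 groups, and every pair of groups overlapped. The group means were, from high to low, 95706 ± 6307 in control, 94301 ± 17067 in ObBPA, 89282 ± 15776 in BPA and 85611 ± 8765 in obese hearts (SD, n = 4). Neighbours in this order differed by less than the SD of at least 1 of the groups. The highest and lowest means, of control and obese hearts, differed by more than the SD of either group. In bulk tissue, fewer cells of a type and less RNA per cell cannot be told apart.

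COX3, the remaining core subunit, had a similar spread. Its FPKM values in libraries 0 to 3 were 59569, 74709, 66029 and 61986 in control hearts. They were 62881, 55486, 51184 and 57857 in BPA hearts. In obese hearts they were 62110, 50538, 63970 and 62235, and in ObBPA hearts 72497, 51509, 72523 and 45096. The ObBPA group held a pair of libraries near the top of the whole range and a pair near its bottom, and every pair of groups overlapped. The means were 65573 ± 6648 in control, 60406 ± 14219 in ObBPA, 59713 ± 6176 in obese and 56852 ± 4877 in BPA hearts (SD, n = 4). Neighbours in this order also differed by less than the SD of at least 1 of the groups, whereas control and BPA hearts, at the ends, differed by more than either SD.

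COX2, the subunit that takes electrons from cytochrome c, was the most variable of the 3. Its FPKM values in libraries 0 to 3 were 15.8, 20.3, 16.2 and 12.9 in control hearts. They were 14.0, 36.2, 27.5 and 32.6 in BPA hearts. In obese hearts they were 33.6, 25.4, 33.97 and 16.4, and in ObBPA hearts 25.02, 15.6, 21.1 and 16.4. Of the BPA libraries, 3 lay above all control libraries and library 0 lay among them, and of the obese libraries, 3 lay above all control libraries and library 3 lay among them. The means were 27.6 ± 9.72 in BPA, 27.3 ± 8.28 in obese, 19.5 ± 4.39 in ObBPA and 16.3 ± 3.06 in control hearts (SD, n = 4). Neighbours in this order differed by less than the SD of at least 1 of the groups, whereas BPA and control hearts, at the ends, differed by more than either SD. In each pairwise contrast the groups overlapped for all 3 genes. The share of all features whose groups did not overlap was 1.18% for BPA and control, 2.02% for ObBPA and obese, 1.89% for obese and control, 1.77% for ObBPA and BPA and 1.41% for ObBPA and control.

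**Figure D2:**
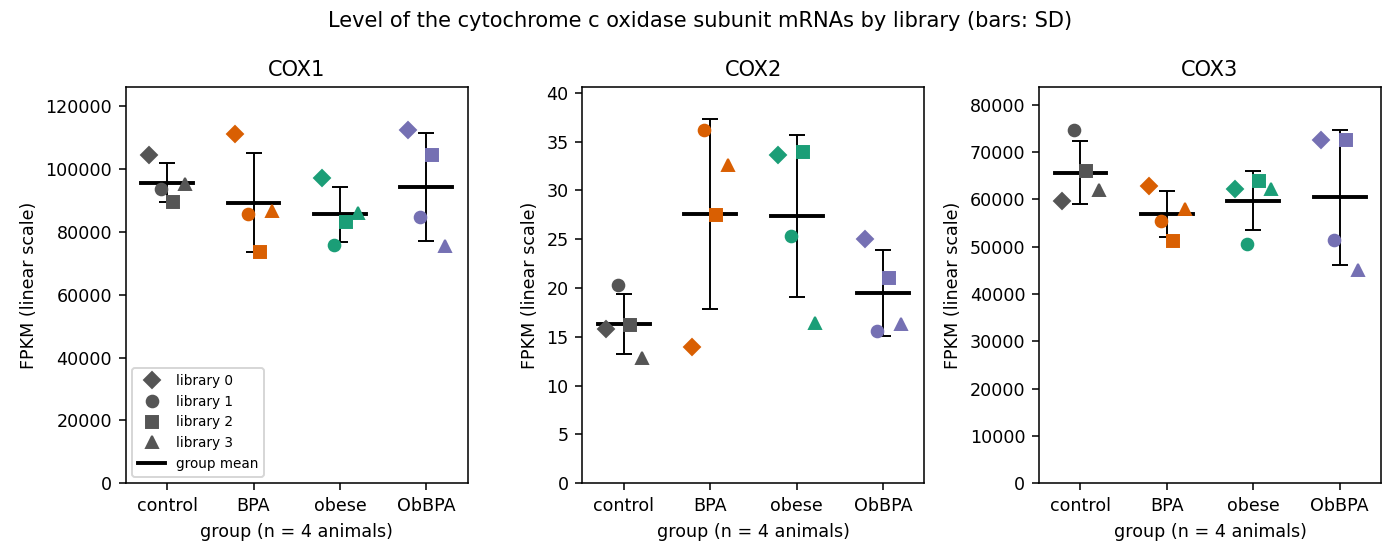
FPKM (y axis, linear, from 0) of COX1, COX2 and COX3 in each library (points, shape by library number) of the 4 groups (x axis), with group means (thick lines) and SD (bars, n = 4). The groups overlap for each gene, and COX1 is highest in library 0 of every group.

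Within groups, the residual SD of log2(FPKM + 1) was 0.20 for COX1, 0.21 for COX3 and 0.43 for COX2. Among the 6092 features whose mean FPKM reached 10 the median was 0.24, and the values of COX1, COX3 and COX2 lay at percentiles 34.8, 40.2 and 89.0 of those features.

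Differences between groups were tested by limma on log2(FPKM + 1) over the 13251 features with an FPKM of at least 1 in at least 4 libraries, which included all 3 genes. Log2 differences are on that scale and have 95% intervals. Adjusted p-values are Benjamini-Hochberg values over all 13251 features. None of the 3 genes passed a false discovery rate of 0.05 in any of the 8 contrasts. The background was the same, with 0% of features called in each contrast.

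BPA hearts were set against control hearts for prenatal exposure with normal feeding. COX2 had a log2 difference of 0.66 (0.06 to 1.26), with an adjusted p of 0.999 by limma (0.0334 before adjustment). An unadjusted p under 0.05 was reached by 2.45% of all features in this contrast. COX1 had a log2 difference of -0.11 (-0.46 to 0.23) and COX3 one of -0.20 (-0.56 to 0.15), and limma gave both an adjusted p of 0.999. The COX2 value rests on BPA libraries 1 to 3. Without the libraries numbered 0 it was 0.93, and limma gave an adjusted p of 0.742. On leaving out 1 library, the COX2 value ran from 0.51 to 0.94.

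The same exposure in overfed animals was measured as ObBPA against obese. COX2 had a log2 difference of -0.44 (-1.04 to 0.16), COX1 one of 0.13 (-0.22 to 0.47) and COX3 one of -0.01 (-0.36 to 0.35). The adjusted p by limma was 1 for each gene, and 1.96% of all features had an unadjusted p under 0.05.

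Obese hearts were set against control hearts for overfeeding alone, a contrast that uses the same control libraries as BPA against control. COX2 had a log2 difference of 0.67 (0.07 to 1.27), with an adjusted p of 0.834 by limma (0.0301 before adjustment). The share of all features with an unadjusted p under 0.05 was 4.45%. COX1 had a log2 difference of -0.16 (-0.51 to 0.18) with an adjusted p of 0.865, and COX3 one of -0.14 (-0.49 to 0.22) with an adjusted p of 0.880, both by limma. With every library scaled to the same FPKM sum, the differences of COX1 and COX3 became 0.05 and 0.08. That scaling moved the median difference of all features from -0.01 to 0.17, so relative to this median both genes stayed lower.

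Overfeeding after prenatal BPA, ObBPA against BPA, gave log2 differences of -0.42 (-1.02 to 0.18) for COX2, 0.08 (-0.27 to 0.42) for COX1 and 0.06 (-0.30 to 0.42) for COX3. ObBPA against control, both exposures against neither, gave 0.24 (-0.36 to 0.84) for COX2, -0.04 (-0.38 to 0.31) for COX1 and -0.14 (-0.50 to 0.21) for COX3. The adjusted p by limma was between 0.941 and 1 for all of these. On leaving out 1 library, the COX2 value for ObBPA against BPA ran from -0.70 (without BPA library 0) to -0.27 (without BPA library 1). For ObBPA against control it ran from 0.12 (without ObBPA library 0) to 0.34 (without control library 1). In these contrasts 1.67% and 3.54% of all features had an unadjusted p under 0.05.

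Averaged over both diets, the difference with prenatal BPA was 0.11 (-0.31 to 0.54) for COX2, 0.0064 (-0.24 to 0.25) for COX1 and -0.11 (-0.36 to 0.15) for COX3. Averaged over both prenatal treatments, the difference with overfeeding was 0.13 (-0.30 to 0.55) for COX2, -0.04 (-0.29 to 0.20) for COX1 and -0.04 (-0.29 to 0.21) for COX3. The adjusted p by limma was 0.999 or 1.00 for all of them, and 1.69% and 2.96% of all features had an unadjusted p under 0.05. The COX2 value for averaged prenatal BPA was 0.0035 without obese library 3 and 0.25 without BPA library 0.

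The interaction asked whether the difference with prenatal BPA was the same under both diets. COX2 was higher on average in BPA than in control hearts and lower on average in ObBPA than in obese hearts. Its interaction was -1.10 (-1.95 to -0.25) on the log2 scale, with an adjusted p of 0.999 by limma (0.0149 before adjustment). An unadjusted p under 0.05 was reached by 2.72% of features. COX1 had an interaction of 0.24 (-0.25 to 0.73) and COX3 one of 0.20 (-0.31 to 0.70), both with an adjusted p of 0.999 by limma.

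**Figure D3:**
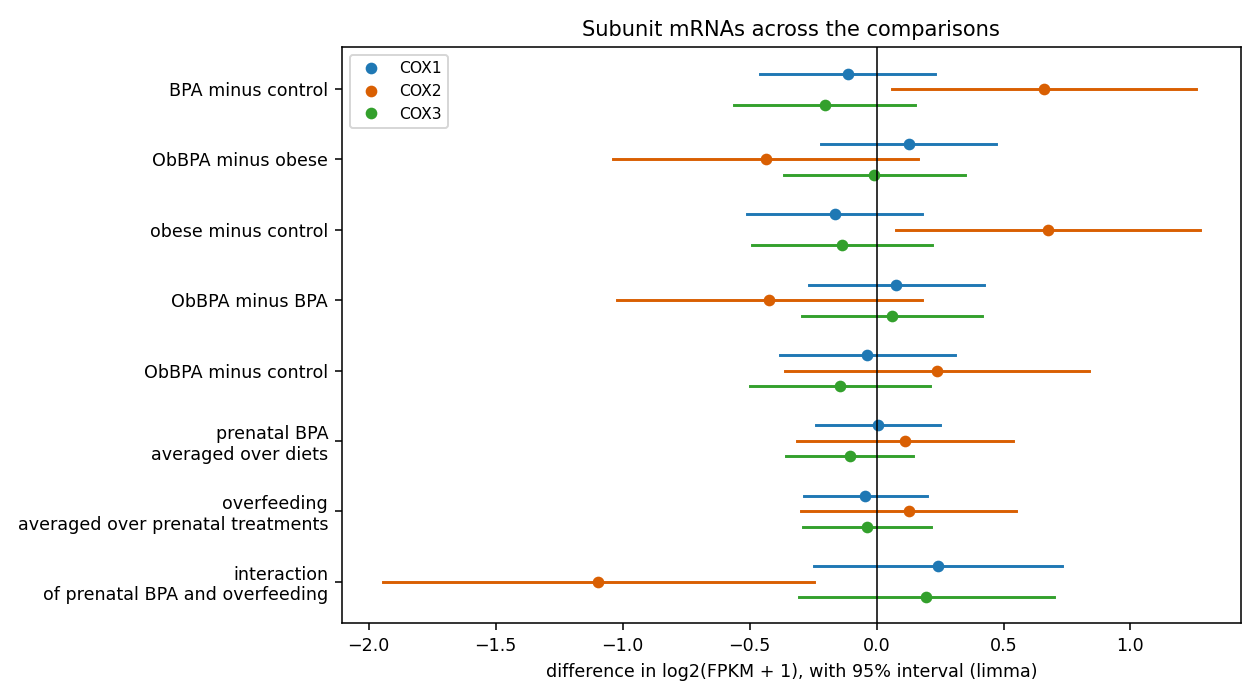
Difference in log2(FPKM + 1) (x axis) of COX1, COX2 and COX3 in the 8 contrasts (rows), as points with 95% intervals from limma. The COX2 interval leaves out 0 in BPA minus control, obese minus control and the interaction, with adjusted p-values of 0.834 to 0.999, and its intervals are wider than those of COX1 and COX3.

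The other genes of the respiratory chain that the mitochondrion encodes gave the same count. These were 7 subunits of complex I (ND1 to ND6 and ND4L), CYTB of complex III, and ATP6 and ATP8 of ATP synthase. All 10 passed the filter on low values, although ATP8 was listed at 0 in 11 libraries, and 0 of 10 were called by limma in either direction in each of the 8 contrasts. Their median log2 difference was -0.04 for BPA against control and -0.13 for obese against control, against -0.00011 and -0.01 over all features. The smallest unadjusted p by limma among the 10 in any of these contrasts was 0.102, for ATP8 with prenatal BPA averaged over diets (log2 difference -1.38).

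The libraries numbered 0 were also compared with the other 12, because these libraries were known from the same data to stand apart. The p-values of this comparison therefore describe a split picked from the data and do not test a question set beforehand. COX1 was higher in the libraries numbered 0 by a log2 difference of 0.31 ± 0.10 (SE), and limma gave an adjusted p of 0.0477. By p-value COX1 held rank 3092, near the end of the 3150 features called, and its call was lost in most fits that left out 1 library. Of all features 23.8% were called in this comparison, 2.6% as higher in those libraries and 21.2% as lower. This split depended on the scaling: 345 features were called higher and 2805 lower as deposited, 868 and 736 with median-of-ratios scaling, and 42 and 3 with the same FPKM sum. The log2 difference of COX3 was 0.12 ± 0.13 (SE) and that of COX2 was -0.06 ± 0.24 (SE), and their adjusted p-values by limma were 0.531 and 0.890. The median of all features was -0.15 in this comparison, -0.01 with median-of-ratios scaling and 0.07 with the same FPKM sum in every library. The COX2 difference was 0.10 and 0.20 under these 2 other scalings. It exceeded the median of all features by 0.095 as deposited and by 0.12 and 0.13 under the 2 scalings, so its position relative to the other features did not turn. Of the 10 other mitochondrial mRNAs, 6 were called higher and none lower: ND1, ND2, ATP8, ND4L, ND4 and ND5. ATP8 was listed at 0 in 11 libraries. With median-of-ratios scaling 8 of the 10 were called higher, and with the same sum 5 of the 10, with none lower under either scaling. ATP8 was among neither, and the number was 2 to 8 on leaving out 1 library, with 2 without BPA library 0 or obese library 0 and 8 without control library 1. The call of COX1 did not hold with every library scaled to the same sum, where the log2 difference was 0.58 and the adjusted p was 0.0661 by limma. It was lost in 14 of 16 fits that left out 1 library, with an adjusted p of up to 0.163 by limma without BPA library 0, and it was kept without control library 1 or ObBPA library 2. Each group held 1 library numbered 0, so the contrasts between groups were balanced only for a difference that these libraries share in all groups. For COX2, library 0 was the lowest of its group in BPA hearts (14.0), the highest in ObBPA hearts (25.02) and neither in control and obese hearts. The main fit had no term for the libraries numbered 0, so their difference remained in the spread within groups. A fit with such a term was among the alternatives, and COX1, COX2 and COX3 were not called in any contrast between groups there.

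Within a library, ratios between the genes do not depend on how libraries were scaled. The log2 ratio of COX1 to COX3 was 0.55 ± 0.21 in control hearts, 0.64 ± 0.13 in BPA hearts, 0.52 ± 0.12 in obese hearts and 0.66 ± 0.10 in ObBPA hearts (SD, n = 4). It had the narrowest range of the 3 ratios, with its lowest value (0.32) in control library 1 and its highest (0.82) in BPA library 0. The log2 ratio of COX1 to COX2 was 12.54 ± 0.30 in control hearts, 11.73 ± 0.82 in BPA hearts, 11.66 ± 0.48 in obese hearts and 12.25 ± 0.12 in ObBPA hearts (SD, n = 4). In BPA hearts library 0 had 12.95 and the other 3 libraries had 11.21 to 11.39. The log2 ratio of COX3 to COX2 was 11.99 ± 0.18 in control hearts, 11.09 ± 0.70 in BPA hearts, 11.14 ± 0.50 in obese hearts and 11.59 ± 0.15 in ObBPA hearts (SD, n = 4). In obese hearts library 3 had 11.89 and the other 3 libraries had 10.85 to 10.96. In both ratios to COX2, BPA library 0 and obese library 3 thus lay within or above the range of the control libraries, and the other libraries of their groups lay below it. The ratios share COX2 as denominator, so their likeness is not independent of the COX2 levels given above. Those levels are uncertain as levels of the mRNA.

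**Figure D4:**
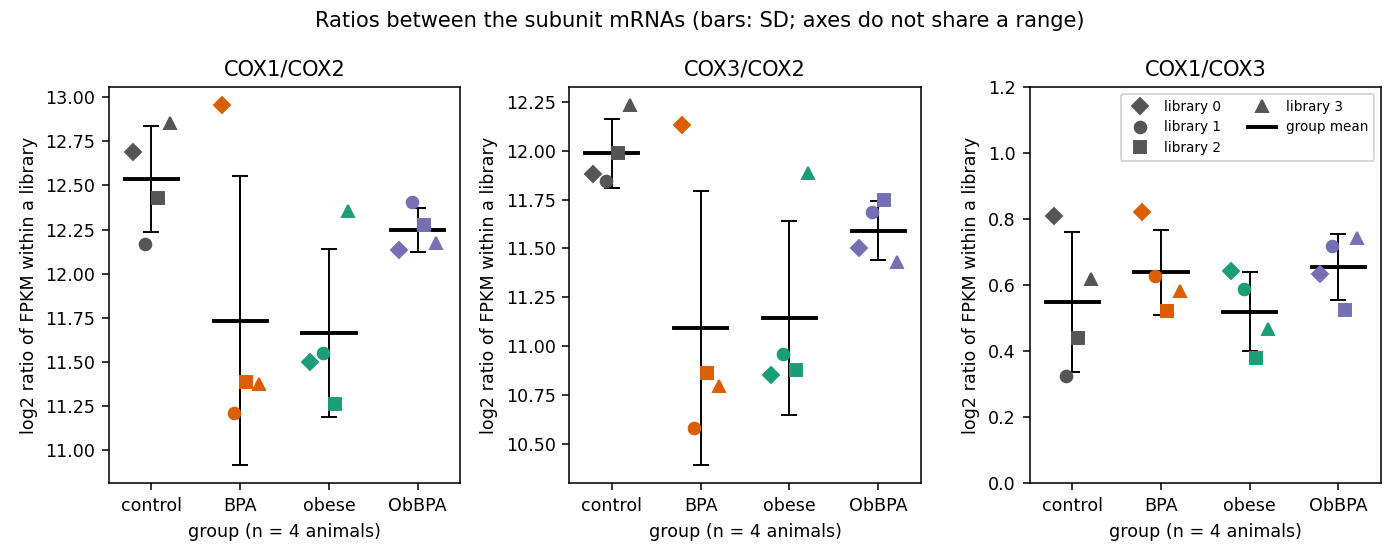
Log2 ratio of FPKM within each library (y axis, a separate range for each panel) for COX1/COX2, COX3/COX2 and COX1/COX3 by group (x axis), with points for libraries, thick lines for means and bars for SD (n = 4). BPA library 0 and obese library 3 lie apart from the other libraries of their groups in both ratios to COX2.

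The ratios were compared by exact two-sided permutation tests, 21 in all (3 ratios in 7 contrasts), and adjusted over these 21. With 4 animals against 4, the smallest p such a test can give is 0.0286. It was reached by COX3/COX2 in ObBPA against control, where all 4 ObBPA libraries (11.43 to 11.75) lay below all 4 control libraries (11.84 to 12.23). The log2 difference was -0.40 and the adjusted p of this exact test was 0.300. For levels, 1.41% of all features had groups that did not overlap in this contrast, while COX1, COX2 and COX3 each overlapped. In obese against control, COX1/COX2 differed by -0.87 (exact permutation p = 0.0571) and COX3/COX2 by -0.84 (exact permutation p = 0.0857), both with an adjusted p of 0.300. In BPA against control, COX1/COX2 differed by -0.80 (exact permutation p = 0.143) and COX3/COX2 by -0.89 (exact permutation p = 0.114), again with an adjusted p of 0.300. For COX1/COX3, the difference was at most 0.14 in size in the 5 pairwise contrasts, with exact permutation p-values of 0.143 to 0.829. No ratio passed after adjustment, and the smallest adjusted p of the 21 exact tests was 0.300. A pairwise test at the floor of 0.0286 could pass this adjustment only if many of the 21 reached it together. The lack of calls in the pairwise contrasts therefore does not show that the ratios were alike. For the averaged contrasts the smallest p that the exact test can give was 0.00041.

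As shares of the FPKM sum, COX1 took 2.64% ± 0.976 in control hearts, 2.18% ± 0.539 in BPA hearts, 2.62% ± 0.341 in obese hearts and 2.79% ± 0.554 in ObBPA hearts (SD, n = 4). COX3 took 1.75% ± 0.383, 1.38% ± 0.203, 1.81% ± 0.0922 and 1.78% ± 0.380 in the same order. The share of COX2 was between 0.000349% in control library 3 and 0.00105% in obese library 0.

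A share moves with every other feature of the library. The tRNA-Pro feature took 35.6% ± 11.3 of the sum in control hearts, 42.7% ± 7.21 in BPA hearts, 37.6% ± 6.52 in obese hearts and 34.8% ± 4.15 in ObBPA hearts (SD, n = 4). In control library 0, where it took 20.0%, COX1 took 4.0%, and in control library 1, where it took 46.7%, COX1 took 1.72%. These were the highest and lowest COX1 shares of all libraries, in the libraries with the lowest and highest FPKM sum. The FPKM of COX1 in those libraries, 104443 and 93577, differed far less than these shares. Of the summed FPKM of the 13 mitochondrial mRNAs alone, COX1 took 27.97% ± 1.30 and COX3 18.6% ± 1.40 over all libraries (SD, n = 16). The 3 genes together took 44.2% to 49.4% of that sum. The part of tRNA-Pro in the differences of shares between groups was not tested.

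**Figure D5:**
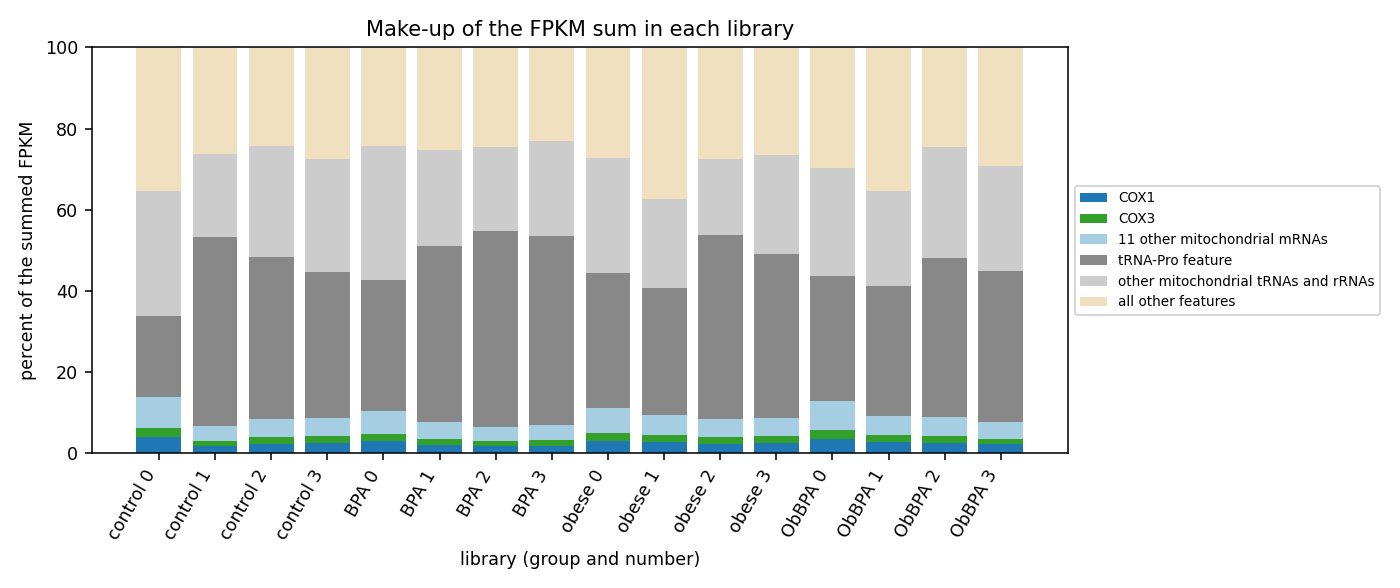
Percent of the summed FPKM (y axis) taken by COX1, COX3, the 11 other mitochondrial mRNAs (COX2 among them), the tRNA-Pro feature, other mitochondrial tRNAs and rRNAs, and all other features in each of the 16 libraries (x axis). The tRNA-Pro feature takes 20.0% to 48.5%, and COX1 takes 1.72% to 4.0%.

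Across the 16 libraries, COX1 and COX3 varied together, while no relation of COX2 with either passed the test. Relations were computed on log2(FPKM + 1), 9 in all, with permutation tests and adjustment over the 9. COX1 and COX3 had a Pearson r of 0.74 (permutation p = 0.0011, adjusted 0.0033) and a Spearman rho of 0.66 (permutation p = 0.00599, adjusted 0.018). The Pearson r was 0.74 without the 2 libraries farthest from the median of COX1, BPA library 0 and ObBPA library 0, and 0.84 among the 12 libraries numbered 1 to 3. The 4 libraries numbered 0 were too few for a value of their own. COX1 and COX2 had a Pearson r of -0.25 (permutation p = 0.340, adjusted 0.510) and a rho of -0.32 (permutation p = 0.232, adjusted 0.418), with r = -0.22 without the same 2 libraries. COX3 and COX2 had a Pearson r of -0.01 (permutation p = 0.957, adjusted 0.957) and a rho of -0.06 (permutation p = 0.830, adjusted 0.934), with r = -0.11 without obese library 1 and ObBPA library 3. All values of a library share its depth and scaling, which such relations include.

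COX1 and COX3 also varied with the summed FPKM of the 10 other mitochondrial mRNAs, whereas the relation of COX2 did not pass the test. For COX1 the Pearson r was 0.92 (permutation p = 1e-05, the smallest these resamples can give, adjusted 9e-05) and rho was 0.89 (permutation p = 1e-05, adjusted 9e-05). For COX3 r was 0.81 (permutation p = 0.00014, adjusted 0.00063) and rho was 0.71 (permutation p = 0.00288, adjusted 0.013). For COX2 r was 0.04 (permutation p = 0.889, adjusted 0.957) and rho was 0.0088 (permutation p = 0.978, adjusted 0.978). Without ObBPA libraries 0 and 3, the 2 farthest from the median of the sum, r was 0.88 for COX1, 0.72 for COX3 and -0.11 for COX2. Among the 12 libraries numbered 1 to 3, r was 0.84, 0.91 and 0.13.

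With the tRNA-Pro feature, no relation passed. The Pearson r was -0.28 for COX1 (permutation p = 0.290, adjusted 0.510), 0.33 for COX2 (permutation p = 0.222, adjusted 0.500) and 0.22 for COX3 (permutation p = 0.405, adjusted 0.520). Spearman rho was -0.26 (permutation p = 0.325, adjusted 0.434), 0.42 (permutation p = 0.109, adjusted 0.244) and 0.26 (permutation p = 0.338, adjusted 0.434) in the same order. Without control libraries 0 and 1, r was -0.21, 0.31 and 0.09. Among the 12 libraries numbered 1 to 3, r was 0.29, 0.40 and 0.54.

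Among the 13219 tested features outside the mitochondrial set, the pattern most like that of COX1 over the 16 libraries was ENSOARG00000025366, with a Pearson r of 0.87 and a mean FPKM of 3754. It was also the most like COX3, with r = 0.80. The next for COX1 was ENSOARG00000017627 (r = 0.85) and for COX3 ENSOARG00000012954 (r = 0.78). For COX2 they were ENSOARG00000012374 (r = 0.81, with a mean FPKM of 1.31) and ENSOARG00000016981 (r = 0.77). These are the highest of 13219 values per gene over 16 libraries and are given as a description, and the table does not pair the IDs with names.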

How the data were processed

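Heart muscle mRNA of 16 female sheep was measured, with 1 library per animal. Libraries were made with the TruSeq RNA kit from poly-A RNA, per the labels' protocols. The authors deposited FPKM values for 27054 features. The submitters' processing notes name the build Oar_v3.1 and, without their roles, Cuffdiff 2.1.1, Cufflinks, Bowtie2 2.1.0, TopHat2 2.0.9 and FastQC. The sources used here do not give their settings, the treatment of fragments with several matches or any scaling of libraries. All columns matched sample titles.

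Absolute depth is unknown. Steps of low FPKM values, matched within 0.01 on the log2 scale, gave relative depths of 0.540 to 1.75 (control library 3 as 1) for the libraries numbered 1 to 3. Those numbered 0 had no common step.

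Features with an FPKM of at least 1 in at least 4 libraries (13251) were fitted as log2(FPKM + 1), a scale that understates changes of low features, with limma 3.58.1 in R 4.3.3 (trended prior variance, 12 residual and 2.36 prior degrees of freedom, all groups together, two-sided). Ratios were compared by exact permutation and correlations with 100000 permutations, in Python 3.11.15 with numpy 2.4.6, pandas 2.3.3 and scipy 1.17.1. The procedure was tested on simulated data. No libraries were identical.

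The genes, lists and tests were chosen with earlier results of these data known. The named genes were the 3 subunits, the other 34 mitochondrial features and, per subunit, the 2 features with the highest Pearson r. Nuclear subunits and cell type markers had been listed by symbol, but 0 IDs matched the RefSeq table. Protein and promoter sequences were not used here. Alternatives changed the pseudocount, filter, scaling, libraries fitted, blocking by number and the denominator of shares. Those for the libraries numbered 0 were chosen after seeing the data.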

Additional observations from a re-analysis of the deposited data

Results flagged for a closer look

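In 4 of 36 groups of 4 libraries (3 levels, 3 shares and 3 ratios in 4 groups), 1 library lay far from the other 3. Chance marks about 1 in 20 such groups, or 1.8 of 36, and the 36 share libraries and genes. The COX3 level of obese library 1 was 50538, against 62110 to 63970 in the other obese libraries. The log2 ratio COX1/COX2 of BPA library 0 was 12.95, against 11.21 to 11.39. The log2 ratio COX3/COX2 of obese library 3 was 11.89, against 10.85 to 10.96. The COX2 share of ObBPA library 0 was 0.000787% of the FPKM sum, against 0.000493% to 0.000526%.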

How the results depend on the processing

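In the 8 contrasts between groups, COX1, COX2 and COX3 were called under none of the alternatives by limma, and 32 of 567 values of their log2 differences changed sign. Of 273 values of the ratios, 20 changed sign and none was called. In the pairwise contrasts a ratio could hardly be called, because no exact test there gives a p small enough to pass the adjustment alone. The lack of calls there is thus no sign of stability. The cause of the changes in sign was not tested except for scaling. Fitting only the groups compared raised the number of features called to 4 in obese against control, to 2 in both ObBPA against obese and ObBPA against BPA, and to 1 in ObBPA against control, and fitting without a filter gave 1 for ObBPA against control. With the same FPKM sum in every library, log2 differences that turned were those of obese against control (COX1 0.049, COX3 0.077), ObBPA against control (COX1 0.13, COX3 0.024), averaged prenatal BPA (COX1 -0.077) and averaged overfeeding (COX1 0.21, COX3 0.21). This scaling moved the median of all features to 0.17, 0.15, -0.063 and 0.21 in these contrasts. Relative to that median, COX1 and COX3 were -0.12 and -0.089, then -0.016 and -0.12, then -0.014 for COX1, then -0.0041 and 0.0017, against -0.15 and -0.13, -0.045 and -0.15, -0.0025, and -0.044 and -0.038 as deposited. Relative to the median, the sign thus turned for COX3 in averaged overfeeding alone among these. Median-of-ratios scaling turned COX1 for averaged prenatal BPA to -0.0031, which relative to the median was -0.004 against -0.0025 as deposited. Leaving out the libraries numbered 0 turned COX1 for averaged prenatal BPA to -0.042 and COX2 for averaged overfeeding to -0.14, and turned the ratios COX1/COX3 for obese against control to 0.018 and, for averaged overfeeding, COX1/COX2 to 0.10, COX3/COX2 to 0.047 and COX1/COX3 to 0.051. Medians in place of means turned COX1/COX3 for averaged overfeeding to 0.035. With the mitochondrial tRNAs and rRNAs left out of the denominator the mean shares were 6.84% for COX1, 0.0017% for COX2 and 4.53% for COX3, and with the 13 mitochondrial mRNAs as denominator 27.97%, 0.0071% and 18.6%.

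Leaving out 1 library at a time, the number of features called was 0 to 1 for BPA against control, ObBPA against obese, obese against control and averaged prenatal BPA. Log2 differences that turned ranged, for COX3 in ObBPA against obese, from -0.11 to 0.12. In ObBPA against BPA they ranged from -0.014 to 0.19 for COX1 and from -0.038 to 0.19 for COX3. COX1 ranged from -0.13 to 0.064 in ObBPA against control and from -0.049 to 0.057 for averaged prenatal BPA. For averaged overfeeding the ranges were -0.089 to 0.012 for COX1, -0.015 to 0.23 for COX2 and -0.087 to 0.027 for COX3. COX2 kept its sign in 7 of the 8 contrasts, with ranges of 0.51 to 0.94 in BPA against control, -0.65 to -0.32 in ObBPA against obese, 0.56 to 0.89 in obese against control, -0.70 to -0.27 in ObBPA against BPA, 0.12 to 0.34 in ObBPA against control, 0.0035 to 0.25 for averaged prenatal BPA and -1.38 to -0.94 for the interaction. The ratio COX1/COX3 ranged from -0.10 to 0.059 in obese against control, from -0.022 to 0.078 in ObBPA against BPA and from -0.043 to 0.038 for averaged overfeeding. COX1/COX2 ranged from -0.31 to 0.0045 for averaged prenatal BPA and from -0.29 to 0.026 for averaged overfeeding, where COX3/COX2 ranged from -0.30 to 0.0013.

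For the libraries numbered 0 against the others, 3150 features were called, 1604 with median-of-ratios scaling and 45 with the same sum. Leaving out 1 library gave 1587 (without control library 0) to 4789 (without control library 1), and 1903 without obese library 0. COX1 was 0.58 with the same sum, without a call, and 0.26 to 0.35 on leaving out 1 library. COX2 was 0.10 with median-of-ratios scaling, 0.20 with the same sum and -0.24 to 0.30 on leaving out 1 library, with 0.30 without BPA library 0.

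With the replicate number as a block, 0 features were called by limma in all 8 contrasts, and the COX2 interaction was -1.10 with an adjusted p of 0.928. For ratios the smallest adjusted p under this pairing was 0.417 by exact sign changes, which cannot go below 0.125 with 4 pairs. Correlations between libraries of the same number were -0.08 to 0.16, and 4, 1, 0 and 2 libraries numbered 0, 1, 2 and 3 correlated best with their own number, so the numbers were not taken as pairs. Absolute depth is unknown, which limits any statement on the precision of COX2 at 12.9 to 36.2 FPKM.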
